A study of Mus musculus with 6 samples.

Results

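Acrosome and sperm-egg fusion genes were followed in whole testis from mice lacking Hsf5 and from controls at postnatal day 16. The genes were chosen by name: 34 symbols were listed, 29 of them have a row among the 29333 genes of the table, and 22 passed the filter on low values. All 22 had a mean of at least 10 normalised read counts (reads divided by a size factor of the library) in the knockouts alone, so none entered the test only through its control level. Dcst2, with a control mean of 9.79 and a knockout mean of 17.2, entered only through its knockout level. Hrb is an older symbol of Agfg1, which was measured. Izumo2, Spaca7 and the hyaluronidase genes Spam1 and Hyal5 were not analysed here.

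The knockouts are labelled Hsf5-/-. The controls are titled wild type, and the series text also allows Hsf5+/- animals among them. Tissue was whole testis at 16 days after birth in both groups. The labels list 3 samples per group, of which control 1, control 2, knockout 1 and knockout 3 were analysed here. Nothing in the labels says that the samples came from separate animals, so the p-values reflect sample-to-sample spread here, which may be technical. In limma this spread is in large part pooled over genes of similar level. Pairs of values below stand in the order control 1 and control 2, then knockout 1 and knockout 3. HSF5 is a heat shock factor family member expressed in spermatocytes.

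The acrosome is a secretory vesicle that is built from Golgi membranes over the nucleus of the round spermatid and later covers the front of the sperm head. Its matrix holds proteases and proteins that bind the egg coat, the zona pellucida. After its release at fertilization, membrane proteins such as IZUMO1 carry out adhesion to the egg and fusion. Many acrosomal genes are transcribed in pachytene spermatocytes, before the organelle forms.

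Depth lay between 16209093 reads in knockout 3 and 18557898 in control 2. Hsf5 stood at 2541 and 3147 normalised read counts in the controls and 1926 and 1602 in the knockouts. Both knockouts lay below both controls, but a count over the whole gene is no check of the deletion itself. Hsf5 fell by 0.69 on the log2 scale (limma Benjamini-Hochberg adjusted p = 0.00716), a call lost without control 2 (limma adjusted p = 0.108) and without knockout 3 (limma adjusted p = 0.072). The 2 controls differed by more than sampling noise (chi-square per degree of freedom 13.2, against 4.73 for the knockouts).

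Which of these genes were already read before spermatids appear was taken from the controls. At this age the leading germ cells are pachytene spermatocytes. The nuclear packaging genes of spermatids were near 0: Tnp2 had 9 and 8 reads in control 1 and control 2, Prm1 had 1 and 4, and Prm2 had 3 and 0. Over the 15 measured spermatid markers outside the gene set, normalised read counts summed to 149 and 232 in the controls and to 153 and 158 in the knockouts, and 4 of them passed the filter on low values. These 4 had at least 10 reads in each control: Gapdhs (42 and 31), Tssk1 (35 and 62), Oaz3 (23 and 35) and Tssk6 (18 and 26). Reads of this size thus do not set the fusion genes Izumo1 (20 and 20) and Dcst1 (15 and 12) apart from spermatid markers. The 29 acrosome and fusion genes summed to 15900 and 24546 in the controls. Of this, the 6 measured formation and traffic genes made up 7982 and 8953. In whole testis, which cell type holds the reads of a gene cannot be told. Markers of epididymal epithelium had 5 and 11 reads in the controls over 5 genes.

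Of the 29 genes, 21 had at least 10 reads in each control. They were Acr, Acrbp, Zpbp, Zpbp2 and Crisp2 of the acrosomal matrix, and Spaca1, Spesp1, Dkkl1 and Pkdrej of the group listed as acrosomal membrane. Also among them were Insl6 and Fabp9, and the fusion group members Izumo1, Izumo4, Spaca6 and Dcst1. The rest were the formation and traffic genes Gopc, Pick1, Agfg1, Smap2, Vps54 and Dpy19l2. A further 3 had fewer reads in at least 1 control but some in both: Dcst2 (11 and 9), Eqtn (7 and 5) and Tmem95 (7 and 2). The last 5 had no read in control 1 and a few in control 2: 7 for Zp3r and Spaca4, 4 for Acrv1 and Izumo3, and 2 for Spaca3. A count of 0 in control 1 allows up to 3 reads, or 0.164 RPM (reads scaled to library depth). Acrv1, which encodes the acrosomal vesicle protein SP-10, Zp3r, an acrosomal matrix protein, and Spaca3, a lysozyme-like acrosomal protein, were thus not clearly read at this age. No gene of the set showed the opposite pattern, at least 2 reads in control 1 and none in control 2. Genome-wide, 1662 genes had no read in control 1 and at least 2 in control 2, and 1394 genes the reverse.

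Levels between genes were compared as RPKM, read counts scaled to exon length in kilobases and to library depth. Dkkl1 was highest at 77.9 in control 1 and 130 in control 2. Crisp2 followed at 40.7 and 86.5, and Fabp9 at 42.8 and 62.5. These were the highest levels of the set, and the ranges of Crisp2 and Fabp9 over the controls overlap. Smap2 (24.9 and 25.4), Zpbp2 (12.2 and 35.0), Insl6 (15.6 and 31.1), Spesp1 (15.5 and 23.9), Agfg1 (19.3 and 19.5), Acr (12.9 and 23.6), Vps54 (13.3 and 13.2) and Dpy19l2 (8.15 and 18.1) came next, and neighbours in this order do not differ beyond the spread of the controls. Zpbp (7.57 and 14.0) and Acrbp (5.38 and 14.4) were lower in control 1 than all of these. Of the genes below these, Gopc (5.92 and 5.49), Spaca1 (4.53 and 4.39), Pick1 (2.69 and 3.31) and Pkdrej (0.628 and 2.46) are not fusion genes, and the matrix genes Zp3r, Spaca3 and Acrv1 were among the lowest. In the fusion group Izumo4, the highest, reached 3.58 and 8.76, Spaca6 1.13 and 1.11, Izumo1 0.366 and 0.36, and Dcst1 0.157 and 0.123.

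**Figure D1:**
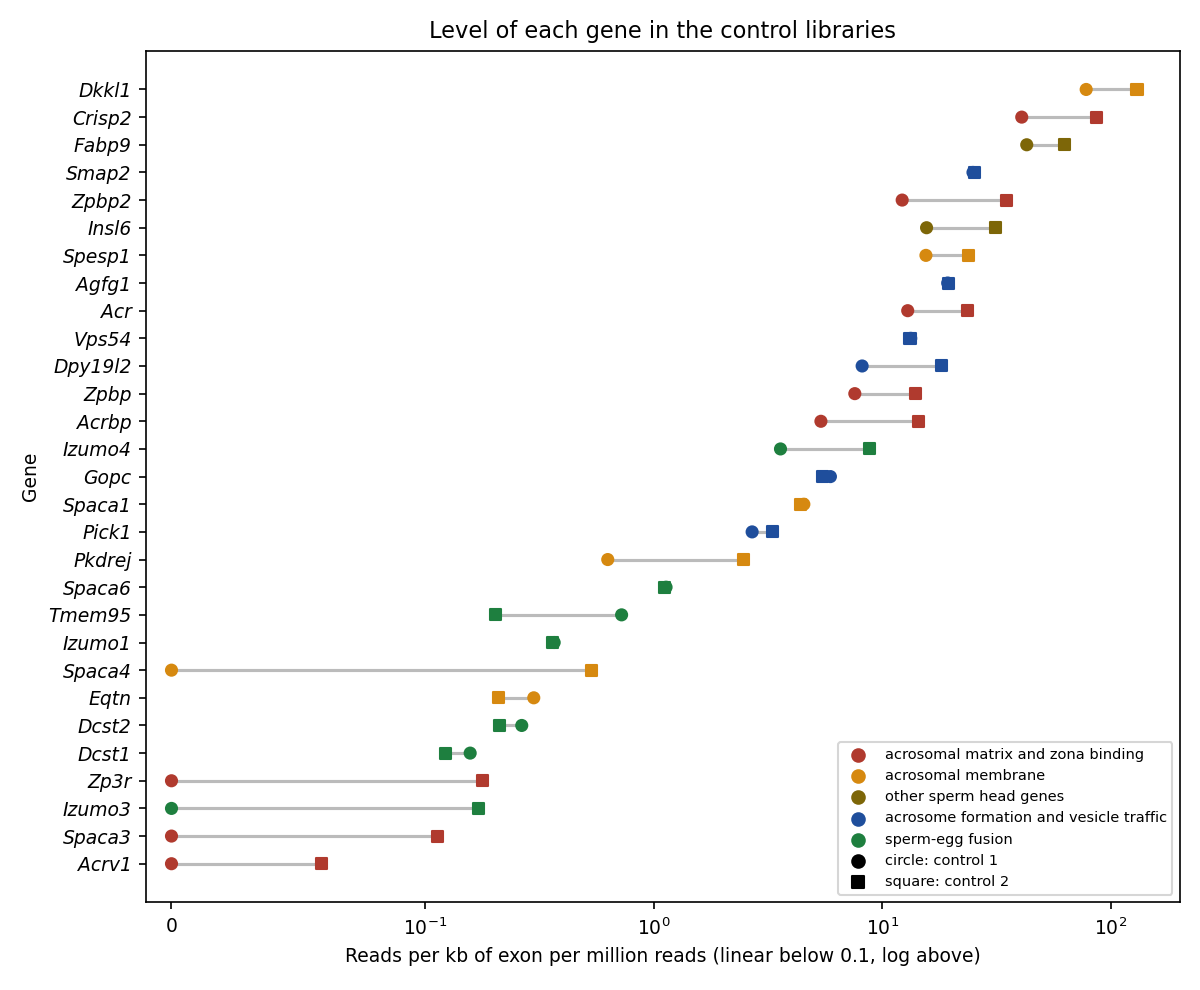
Level of each of the 29 genes in control 1 (circles) and control 2 (squares), in RPKM (reads scaled to exon length and library depth), on an axis that is linear below 0.1 and logarithmic above, coloured by role. Dkkl1, Crisp2 and Fabp9 lead, fusion genes (green) lie from Izumo4 down among genes of other roles, and 5 genes have no read in control 1.

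Knockout testes had lower transcript levels of every tested acrosomal matrix gene, while 2 of 6 formation and traffic genes fell and no gene of the fusion group passed the test. Of 22 tested genes 12 fell and 0 rose (limma, Benjamini-Hochberg adjusted p under 0.05), and edgeR and DESeq2 on the recovered reads also called 12 lower and 0 higher. At an unadjusted limma p under 0.05 there was 1 gene higher, Spaca6. Over all 17480 tested genes the same limma rule called 13.5% lower and 3.28% higher. Of the 22, 11 were called and at least 2-fold lower, as were 6.72% of all tested genes. The median log2 fold change was -1.11 over the 22 genes and 0.01 over all tested genes. In whole testis, fewer cells of a type and less RNA per cell cannot be told apart.

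None of the 12 was called by limma without the mean-variance trend, where the lowest Benjamini-Hochberg adjusted p among them was 0.0956. Without control 2 the number that fell was 6, and without a filter on low values it was 4. In the authors' deposited table the same 12 genes are lower, 0 are higher and 5 have no adjusted p, at the 0.05 level.

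Background shares moved with the setting, and the counts of acrosome and fusion genes are read against them. Over all tested genes, edgeR called 12.3% lower and 2.96% higher, DESeq2 13.5% and 3.35%, and the authors' deposited table called 11.3% and 2.26%. Limma called 13.5% and 3.25% with a pseudocount of 0.5, 13.4% and 3.21% with 5, and 15.2% and 4.05% at a mean of at least 30, each with 12 of the acrosome and fusion genes lower. It called 2.78% and 0.126% with no filter (4 of the genes), 0.229% and 0% without the trend (0 of the genes) and 13.2% and 3.72% with TMM scaling (12 lower, 1 higher). Scaling to library totals gave 11.5% and 8.64% (11 lower, 1 higher), and scaling to Sertoli markers 23.5% and 0.28% (15 lower). Leaving out control 1 gave 12% and 1.93% (13 of the genes lower), control 2 5.09% and 0.177% (6), knockout 1 8.66% and 0.423% (10) and knockout 3 6.36% and 0.423% (10).

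The acrosomal matrix genes fell in 5 of 5 tested cases, with a median log2 fold change of -2.46. Zpbp2, on chromosome 11, encodes a zona pellucida binding protein that also helps shape the sperm head. It had 365 and 1085 normalised read counts in the controls and 52.1 and 47.1 in the knockouts. The lower control was 7.0 times the higher knockout, and control 2 was 2.98 times control 1. Zpbp2 fell by 3.64 on the log2 scale (limma Benjamini-Hochberg adjusted p = 0.000911, SE 0.423). The value was -4.42 with control 1 left out and -2.85 with control 2 left out, both still called by limma (adjusted p = 0.00245 and 0.0153).

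Its paralog Zpbp, also on chromosome 11, fell too. Normalised read counts were 569 and 1093 in the controls and 252 and 203 in the knockouts, so the groups did not overlap and 27.3% of the control mean was left, against 6.85% for Zpbp2. Zpbp fell by 1.80 on the log2 scale (limma Benjamini-Hochberg adjusted p = 0.00294, SE 0.271). The difference between the paralogs was not tested.

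Crisp2, on chromosome 17, encodes a cysteine-rich secretory protein found in the acrosome and in the sperm tail. Its normalised read counts were 2032 and 4484 in the controls and 347 and 185 in the knockouts. The mean went from 3258 ± 1734 to 266 ± 114 (SD, n = 2), which left 8.17%, and every knockout value lay far below both controls. Crisp2 fell by 3.57 on the log2 scale (limma Benjamini-Hochberg adjusted p = 0.000606, SE 0.369), and the call held without each library in turn.

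Acr, on chromosome 15, encodes acrosin, the serine protease of the acrosome. It stood at 359 and 681 normalised read counts in the controls and 112 and 77.9 in the knockouts. Acrbp, on chromosome 6, encodes the protein that binds proacrosin and controls its packaging. It stood at 312, 866, 116 and 75.8 in the same order. For both genes the knockouts lay below the controls, with the lower control 3.20 times the higher knockout for Acr and 2.69 times for Acrbp. On the log2 scale Acr changed by -2.39 (limma Benjamini-Hochberg adjusted p = 0.0013, SE 0.304) and Acrbp by -2.46 (SE 0.42, limma adjusted p = 0.00528). The Acr call held without each library. That of Acrbp was lost when control 2 (limma adjusted p = 0.0675) or knockout 3 (0.054) was left out, and its value was -3.19 without control 1 against -1.72 without control 2. The remaining measured matrix genes, Acrv1, Zp3r and Spaca3, were under the filter, with 0 to 3 reads in each knockout library.

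Of the genes listed as acrosomal membrane 3 of 4 tested fell. The list is a grouping by name, and location in the membrane was not measured. Dkkl1, on chromosome 7, encodes an acrosomal protein related to Dickkopf factors. Its normalised read counts were 2173 and 3779 in the controls and 787 and 480 in the knockouts. Spesp1, on chromosome 9, encodes a protein of the equatorial segment, the region of the sperm head that meets the egg membrane. Its values were 837, 1339, 389 and 312. Neither gene's groups overlapped, and each knockout was below the lower control by a margin of 2.76 times for Dkkl1 and 2.15 times for Spesp1. On the log2 scale Dkkl1 changed by -2.22 (limma Benjamini-Hochberg adjusted p = 0.00116, SE 0.275) and Spesp1 by -1.60 (SE 0.212, limma adjusted p = 0.00155), and both calls held without each library.

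Pkdrej, on chromosome 15, encodes a polycystin family membrane protein linked to the timing of the acrosome reaction. It had 78.5 and 319 normalised read counts in the controls and 16.0 and 33.8 in the knockouts. Control 2 stood at 4.07 times control 1, the widest gap between controls among the genes that fell, and knockout 3 stood above knockout 1, unlike 10 of the 12. Pkdrej fell by 2.71 on the log2 scale (limma Benjamini-Hochberg adjusted p = 0.0187, SE 0.614). Leaving out control 1 gave -3.72 and leaving out control 2 gave -1.71. The call did not hold in limma without control 2 (adjusted p = 0.182) or without knockout 1 (adjusted p = 0.116).

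Spaca1, a membrane protein gene needed for the acrosome to form and keep its shape, did not pass the test. It had 128 and 129 normalised read counts in the controls and 143 and 94.2 in the knockouts, so the controls lay between the knockouts. Its fitted log2 difference was -0.14 (95% interval -0.71 to 0.42, limma Benjamini-Hochberg adjusted p = 0.74). It was 0.16 without knockout 3, and the interval leaves out the falls fitted for Spesp1, Dkkl1 and Pkdrej. Eqtn, which encodes equatorin, had 7 and 5 reads in the controls and 9 and 4 in the knockouts. Spaca4, a GPI-anchored acrosomal protein gene, had 7 reads in control 2 and 0 in each other library. Both were under the filter.

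Insl6 and Fabp9 both fell. Insl6, on chromosome 19, encodes a relaxin family peptide of germ cells. Its normalised read counts were 196 and 405 in the controls and 49.1 and 30.7 in the knockouts. Fabp9, on chromosome 3, encodes the fatty acid binding protein of the perforatorium, the skeletal layer beneath the acrosome. Its values were 492, 747, 126 and 60.4. Both knockouts were far below both controls for each gene. On the log2 scale Insl6 changed by -2.82 (limma Benjamini-Hochberg adjusted p = 0.00146, SE 0.369) and Fabp9 by -2.78 (SE 0.334, limma adjusted p = 0.00103). Without control 2 both limma calls were lost by a small margin (adjusted p = 0.0533 and 0.06), with log2 fold changes of -2.30 and -2.48.

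**Figure D2:**
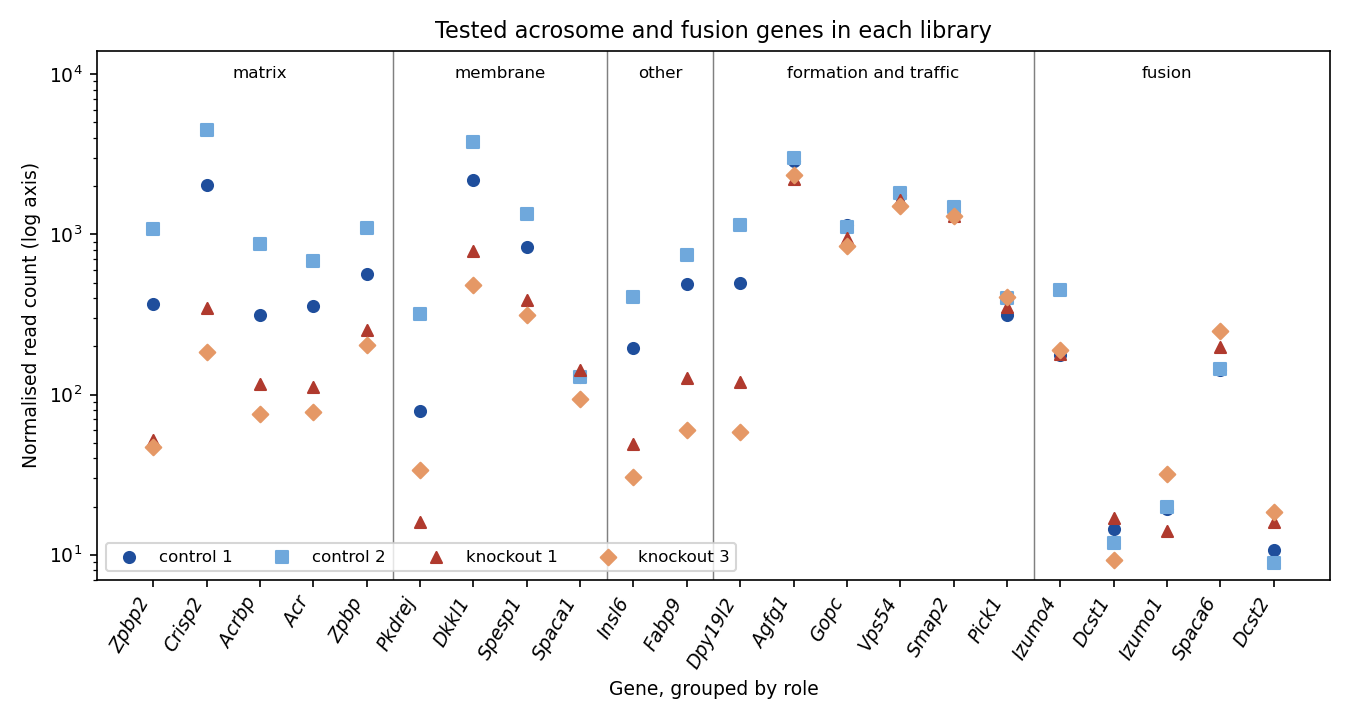
Normalised read counts (log axis) of the 22 tested genes in control 1, control 2, knockout 1 and knockout 3, grouped by role with 1 point per library. For the 5 matrix genes both knockouts lie below both controls and control 2 lies above control 1, while points nearly coincide for Smap2 and Vps54.

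Genes of acrosome formation and vesicle traffic fell in 2 of 6 tested cases, with a median log2 fold change of -0.27. The large fall was in Dpy19l2, on chromosome 9, which encodes an inner nuclear membrane protein that anchors the acrosome to the nucleus. It had 496 and 1147 normalised read counts in the controls and 119 and 58.4 in the knockouts. The groups did not overlap, and 10.8% of the control mean was left. Dpy19l2 fell by 3.16 on the log2 scale (limma Benjamini-Hochberg adjusted p = 0.00148, SE 0.415). The value was -3.76 with control 1 left out and -2.56 with control 2 left out, and in the latter case limma no longer called it (adjusted p = 0.0529).

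Agfg1, on chromosome 1, encodes an Arf GTPase-activating protein needed for proacrosomal vesicles to fuse. Its normalised read counts were 2864 and 3003 in the controls and 2205 and 2333 in the knockouts. The groups were tight and did not overlap, with 77.3% of the control mean left. Agfg1 fell by 0.37 on the log2 scale (limma Benjamini-Hochberg adjusted p = 0.0132, SE 0.0771). The limma call was lost without control 2, knockout 1 or knockout 3 (adjusted p from 0.0671 to 0.111) and with scaling to library totals (adjusted p = 0.0527).

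The other traffic genes did not pass the test. Gopc, a Golgi PDZ protein gene whose loss gives round-headed sperm, had 1148 and 1108 normalised read counts in the controls and 952 and 841 in the knockouts. Vps54, of the GARP tethering complex, had 1770 and 1821 against 1634 and 1499, and Smap2, an Arf GTPase-activating protein gene of the trans-Golgi, 1390 and 1475 against 1301 and 1296. In all 3 the knockouts lay just below the controls. Fitted log2 differences were -0.33 for Gopc (95% interval -0.57 to -0.10, limma Benjamini-Hochberg adjusted p = 0.0585), -0.20 for Vps54 (limma adjusted p = 0.158) and -0.14 for Smap2 (interval -0.34 to 0.06, limma adjusted p = 0.311). Scaling to Sertoli markers made limma call all 3 lower, with a median over all tested genes of -0.23 under that scaling. Pick1, the BAR domain partner of Gopc, had 313 and 401 in the controls and 353 and 404 in the knockouts, which overlap, and a log2 fold change of 0.09 (interval -0.28 to 0.46).

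None of the 5 tested fusion genes was called by limma, whose smallest Benjamini-Hochberg adjusted p among them was 0.0527, for Spaca6. Spaca6, on chromosome 17, encodes a sperm membrane protein required for fusion. It had 142 and 144 normalised read counts in the controls and 198 and 248 in the knockouts, both higher than both controls. Its log2 fold change was 0.63 (95% interval 0.20 to 1.06). It was called higher by limma with scaling to library totals (adjusted p = 0.0246) and with TMM scaling (adjusted p = 0.0467), but not by edgeR (adjusted p = 0.0585). Izumo1, whose protein binds the egg receptor JUNO, had 20 reads in each control, 14 in knockout 1 and 31 in knockout 3. Its log2 fold change of 0.11 had a 95% interval of -1.03 to 1.24, which does not exclude a 2-fold change either way.

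Dcst1 and Dcst2 encode paired membrane proteins required for fusion. RefSeq places their start sites on chromosome 3 on opposite strands, 66 bases apart. Dcst1 had 15 and 12 reads in the controls and 17 and 9 in the knockouts, which overlap. Dcst2 had 11 and 9 against 16 and 18, with no overlap. Fitted log2 differences were -0.06 for Dcst1 (95% interval -1.28 to 1.16) and 0.76 for Dcst2 (interval -0.37 to 1.89, limma Benjamini-Hochberg adjusted p = 0.344).

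Izumo4, of the same family as Izumo1, had 177 and 451 normalised read counts in the controls and 178 and 191 in the knockouts. Control 1 thus lay at the level of the knockouts and control 2 alone was high. Its fitted log2 difference was -0.62 (95% interval -1.45 to 0.22, limma Benjamini-Hochberg adjusted p = 0.296). It was -1.29 without control 1 (limma adjusted p = 0.0173) and 0.06 without control 2 (limma adjusted p = 0.915). Izumo3, linked to anchoring of the acrosome, and Tmem95, a further fusion gene, were under the filter. Izumo3 had 4 reads in control 2 and none elsewhere, and Tmem95 had 7 and 2 in the controls and 8 and 5 in the knockouts.

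**Figure D3:**
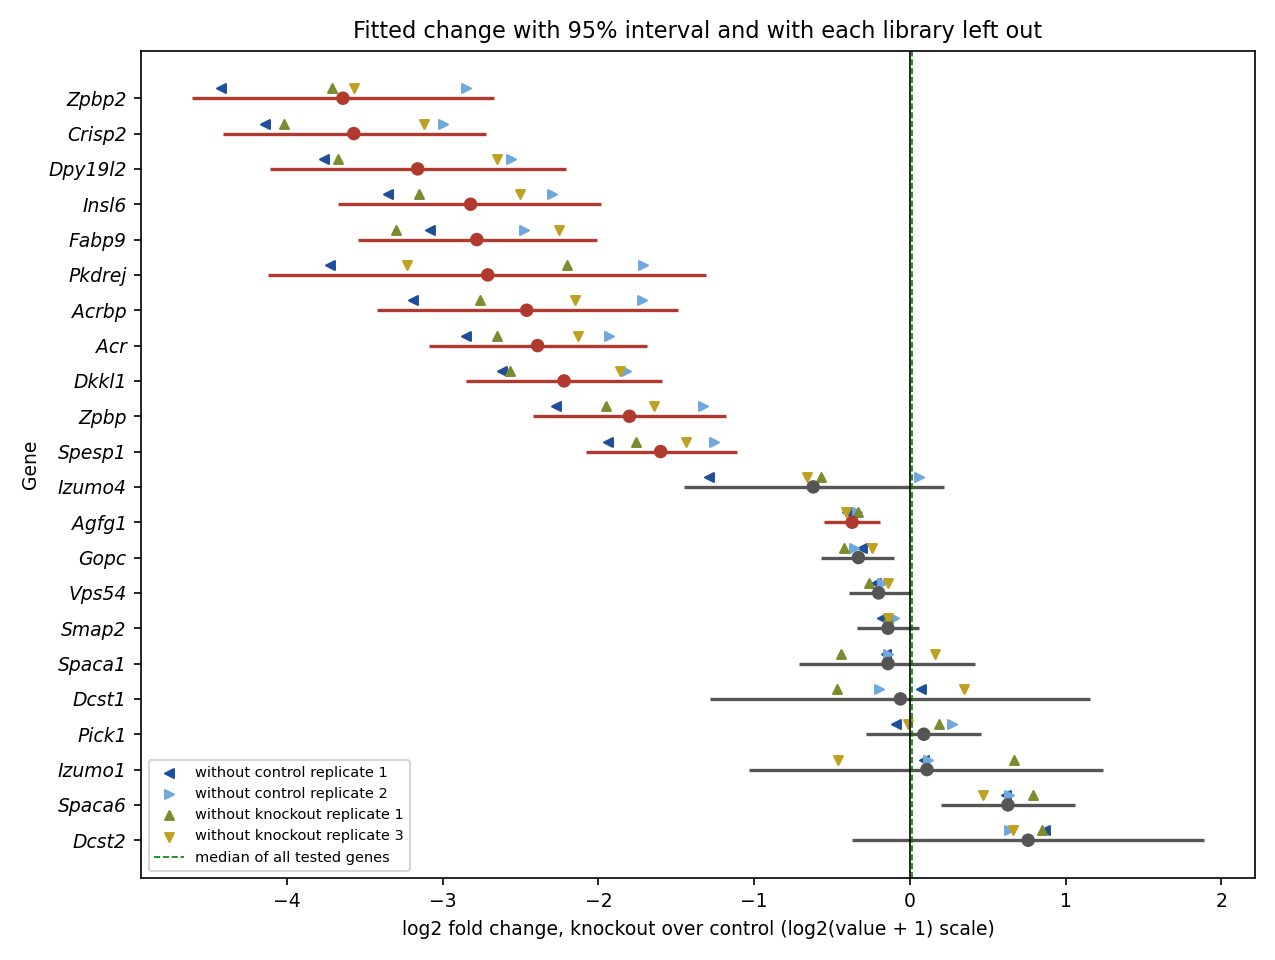
Log2 fold change (knockout against control) as fitted, with 95% intervals (dots and lines, red for the 12 genes that fell, grey for the rest) and with each library left out (triangles), for the 22 tested genes. Values from Zpbp2 (-3.64) to Spesp1 (-1.60) stay below 0 with any 1 library left out, and those without control 2 lie nearest to 0 for most of them, while Izumo4 moves to 0.06 without control 2.

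The genes that fell also differed between the controls. For the 11 with a fall of over 2-fold, control 2 exceeded control 1 in all 11, by 1.52 times for Fabp9 to 4.07 times for Pkdrej, and they summed to 7909 and 15945 in the controls and 2365 and 1565 in the knockouts. Knockout 3 was below knockout 1 in 10 of these 11. Over the 10 tested genes not called, control 2 exceeded control 1 in 7, with a median ratio of 1.02. The control 2 to control 1 difference had a median of 0.64 on the log2 scale over the 22 genes and of 0.02 over all tested genes. Groups did not overlap, with the knockouts lower, in 15 of the 22, against 31.9% of all tested genes. With the knockouts higher it was 2 of the 22 (Spaca6 and Dcst2), against 29.8%. Dcst2 passed the filter only through its knockout level, so its place in this count is no support for a rise.

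Spermatocyte markers moved alongside. The 14 markers of pachytene and diplotene spermatocytes fell in 11 cases (median log2 fold change -1.45) and summed to 56274 and 81192 normalised read counts in the controls and 22820 and 18698 in the knockouts. That left 30.2% of the control level, and the 29 acrosome and fusion genes kept 44.4% of theirs. The latter sum mixes roles: the matrix group kept 12.4%, the membrane group 25.8%, and Insl6 with Fabp9 14.5%. Formation and traffic genes kept 76.7% and fusion genes 92.4%. The fusion genes summed to 370 and 642 in the controls and to 432 and 503 in the knockouts, so the knockouts lay between the controls. One of the markers that fell, Pou5f2, had a knockout mean of 2.04 and passed the filter only through its control level. Markers of early prophase, when chromosomes pair, fell in 2 of 12 cases and kept 87.1% of their summed level. Sertoli cell markers rose in 5 of 15 and stood at 118%, and spermatogonial markers rose in 3 of 10, fell in 1 and stood at 98.2%. Of 8 Leydig cell markers 1 rose and 0 fell, and of 7 macrophage markers 0 passed the limma test in either direction. None of the 14 pachytene markers was at 0 in any library, and the part of these shifts in the falls was not tested.

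A further 58 genes of the same pathway were listed, 51 of them were measured and 41 tested. Of the 41 tested, 21 fell and 0 rose by limma (Benjamini-Hochberg adjusted p under 0.05), against 13.5% and 3.28% of all tested genes. By edgeR 20 were lower and 0 higher, against 12.3% and 2.96%. The 21 include Adam1b and Prss21, which entered the test only through their control levels. In acrosome formation 12 of 21 fell. Spink2, an inhibitor of acrosomal proteases, had 729 and 1808 normalised read counts in the controls and 77.2 and 33.8 in the knockouts, a log2 fold change of -4.46. Spata16, a Golgi protein gene, had 635 and 1504 against 65.1 and 29.7 (-4.44). Rimbp3, of the manchette that shapes the sperm head, had 549 and 1842 against 71.2 and 58.4 (-3.94). All 3 were called by limma without each library in turn, but values differed with the control left out: -5.12 (control 1) and -3.81 (control 2) for Spink2, -5.06 and -3.82 for Spata16, and -4.82 and -3.07 for Rimbp3.

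In the maturation of sperm surface proteins 3 of 11 fell. Clgn, the germ cell chaperone calmegin, had 8045 and 10741 normalised read counts in the controls and 3307 and 2610 in the knockouts, a log2 fold change of -1.66 that held without each library. Its ubiquitous relative Canx, calnexin, fell by 0.29 on the log2 scale, from 10215 and 10315 to 8289 and 8461. Ly6k, a GPI-anchored protein gene that acts on ADAM3, fell by 0.53, from 1371 and 1320 to 1041 and 828. The limma call of Canx was lost without any 1 library (Benjamini-Hochberg adjusted p from 0.0802 to 0.149), and that of Ly6k without control 1, control 2 or knockout 3 (0.115 to 0.151).

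Among other genes of sperm-egg interaction 6 of 9 fell. Of these, Adam1b and Prss21 had knockout means of 4.08 and 3.04 normalised read counts, under the minimum of 10, and entered the test only through their control levels, so the count is no measure of the list. Adam1b, a fertilin subunit gene, had 207 and 692 reads in the controls and 2 and 6 in the knockouts, a log2 fold change of -6.33. Adam3, a sperm protein needed for passage to and binding of the egg coat, had 313 and 1863 reads against 13 and 10 (-5.90), and Prss21, a GPI-anchored serine protease gene, 16 and 179 against 3 and 3 (-3.75). Control 2 was the higher control for each. With control 1 or control 2 left out, values were -7.21 and -5.44 for Adam1b, -7.20 and -4.60 for Adam3, and -5.47 and -2.03 for Prss21. Adam1b stood at -5.70 without knockout 1 and -6.95 without knockout 3. The limma call of Prss21 was lost without knockout 1 and without knockout 3 (Benjamini-Hochberg adjusted p = 0.121 and 0.144). Over the 3 lists the number that fell was 21 with all libraries and 17, 11, 12 and 11 without control 1, control 2, knockout 1 and knockout 3.

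**Figure D4:**
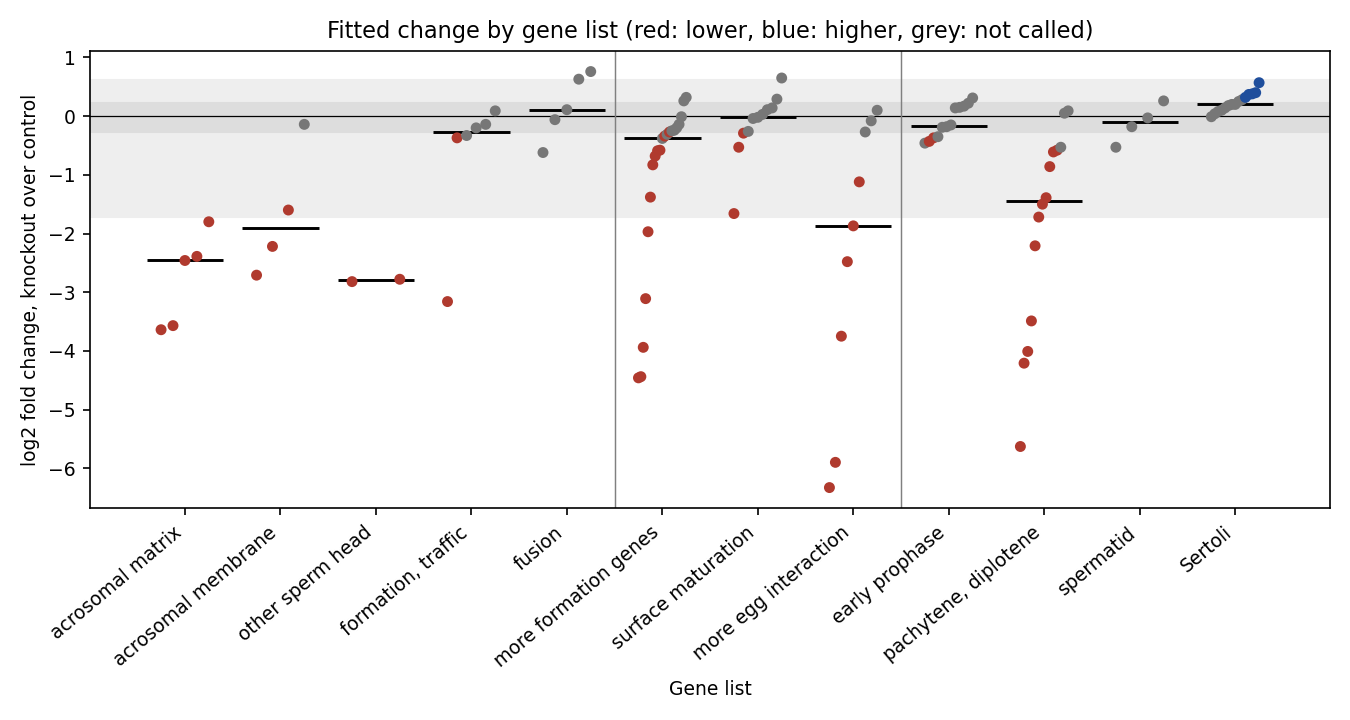
Fitted log2 fold change of each tested gene by list: the roles within the acrosome and fusion set (left), further pathway genes (middle) and cell type markers (right), with a black bar at each median and grey bands for the middle 50% and 90% of all tested genes. Matrix genes have a median of -2.46 and fusion genes of 0.11, beside -1.45 for pachytene and diplotene markers.

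Promoter sequence is shown for 3 genes that fell and for Izumo1, which was read but not called. Of the 7 searched genes with a fall of over 2-fold, only these 3 (Zpbp2, Crisp2 and Acrbp) held any searched motif. Each run is the 250 bases before the RefSeq start site (build GRCm38.p6, while the counts are on mm39), read 5′ to 3′ on the gene's strand, with searched motifs in capitals. For Zpbp2 (chr11:98550847-98551096, + strand) the capitals mark the MYB site CAACTG, whose first base is 59 before the start. For Crisp2 (chr17:40794147-40794396, - strand) they mark TATAAA at 97 and its reverse complement at 118. For Acrbp (chr6:125049677-125049926, + strand) they mark the cAMP response element core TGACGT at 18. For Izumo1 (chr7:45621561-45621810, + strand) they mark the heat shock element GAANNTTC at 124 and 2 overlapping matches of TGACGT, 1 on each strand, at 96 and 94.
Zpbp2: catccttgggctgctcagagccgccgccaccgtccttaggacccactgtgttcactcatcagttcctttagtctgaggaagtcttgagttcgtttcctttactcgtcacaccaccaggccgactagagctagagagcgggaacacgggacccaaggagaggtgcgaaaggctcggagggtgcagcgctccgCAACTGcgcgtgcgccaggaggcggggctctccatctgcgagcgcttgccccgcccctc
Crisp2: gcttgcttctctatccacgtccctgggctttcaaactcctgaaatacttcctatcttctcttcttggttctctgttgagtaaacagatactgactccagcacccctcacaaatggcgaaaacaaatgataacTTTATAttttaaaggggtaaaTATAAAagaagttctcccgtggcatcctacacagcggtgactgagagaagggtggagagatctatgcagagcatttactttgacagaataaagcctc
Acrbp: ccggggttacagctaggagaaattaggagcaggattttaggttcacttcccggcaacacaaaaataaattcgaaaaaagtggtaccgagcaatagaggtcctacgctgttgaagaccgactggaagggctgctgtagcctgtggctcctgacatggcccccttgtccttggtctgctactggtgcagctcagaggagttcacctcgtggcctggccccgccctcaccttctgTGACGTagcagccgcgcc
Izumo1: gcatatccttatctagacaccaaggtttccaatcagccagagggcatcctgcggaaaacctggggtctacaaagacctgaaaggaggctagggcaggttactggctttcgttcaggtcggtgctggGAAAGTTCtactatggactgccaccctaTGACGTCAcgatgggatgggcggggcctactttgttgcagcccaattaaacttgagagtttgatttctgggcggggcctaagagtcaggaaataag

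Both strands of this window were searched in 22 of the 29 genes with a promoter entry, 7 of them among the 11 with a fall of over 2-fold, and in 27025 genes in all. The heat shock element forms GAANNTTC and TTCNNGAA, which can overlap each other, were found in 3 and 2 of the 22 genes and in 0 and 0 of the 7, against 6.78% and 7.1% of all genes. TGACGT was in 3 of the 22 (Acrbp, Izumo1 and Tmem95) and in 1 of the 7, against 6.56%. The RFX motif GTTGCCA was in 2 of the 22 (Pick1 and Spaca6) and in 0 of the 7, against 3.69%. CAACTG was in 2 of the 22 (Zpbp2 and Dcst2) and in 1 of the 7, against 11.1%. TATAAA was in 1 of the 22 (Crisp2) and in 1 of the 7, against 13%. These counts describe letters in 1 window per gene and say nothing of binding.

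Some values are uncertain because exons are shared with other genes in GENCODE M21 (GRCm38), and neither the strand setting nor the handling of shared reads is given in the sources used here. Izumo1 shares 654 exon bases with Rasip1, Acrbp 975 with Gm44597, Fabp9 344 with Gm37389, Pick1 1222 with Gm49486, Dcst1 1268 with Gm10702 and Zpbp 223 with Spata48.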

How the data were processed

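Total testis RNA was sequenced after library preparation with NEBNext Ultra chemistry (labels' protocols). Among tools, the submitters' processing notes list featureCounts, Bowtie2, cutadapt and DESeq2, with build mm39. Versions and settings: not given in the sources used here. For each library the authors deposited a signal, in which read counts were scaled by a single size factor. Every value was a whole multiple of its library's smallest value within 1e-06, so whole reads were recovered. The authors' table of comparisons holds log2 fold changes, standard errors, a score (the test statistic) and p-values, per the file headers.

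The main test was limma 3.58.1 (R 4.3.3) with a mean-variance trend on log2(value + 1), over 17480 genes with a mean of at least 10, with 6.3 prior and 2 residual degrees of freedom. This scale understates the change of low genes. Genes with a Benjamini-Hochberg adjusted p under 0.05 are said to have risen or fallen. Intervals are 95% intervals from the same fit. Alternatives were edgeR 4.0.16 and DESeq2 1.42.0 on recovered reads, other pseudocounts, filters and scalings, no trend, and each library left out. The limma step was tested on simulated data with the same spread setting for all genes. That is no check of the calls at the spread seen between the controls here. Floors of 3 reads cover counting error only. Exon lengths are unions over GENCODE M21 transcripts, a build other than the authors'.

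The genes, lists and motifs were chosen with earlier results of these data known. By the rule for named genes, all genes of the set, Hsf5, 4 spermatid markers and up to 3 called genes of each pathway list with the largest change are named, and others were chosen after their values were seen. Of those spermatid markers, Tnp1 was not analysed here. The cell type lists were early prophase, pachytene, spermatid, spermatogonial, Sertoli, Leydig, macrophage and epididymal markers.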

Additional observations from a re-analysis of the deposited data

How the results depend on the processing

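No paired analysis was possible because the value columns of the 2 groups share only replicate number 1. The count of acrosome and fusion genes that fell was 11 to 15 under edgeR, DESeq2, other pseudocounts, a mean of at least 30 and the other scalings. It was 4 with no filter on low values, 0 without the mean-variance trend, and 6 to 13 with 1 library left out. Spaca6 was the 1 gene called higher, under library totals and under TMM scaling. The median log2 fold change was -1.80 with a mean of at least 30, which drops 3 genes, and -1.61 to -0.81 with 1 library left out. Pathway genes that fell numbered 8 with no filter, 0 without the trend and 11 to 17 with 1 library left out, and 1 (Calr3) rose under library totals. Over all genes 815 fell and 37 rose with no filter, 4108 and 49 with Sertoli scaling, and 40 and 0 without the trend, while 1511 rose under library totals, with an all-gene median of 0.12. With 1 library left out 889 to 2096 fell and 31 to 337 rose. For a lone sample in a group, limma assumes it varies like the other group. The cause of these shifts was not tested.

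Signs turned only among genes not called with all libraries. Dcst1 went to 0.01 with edgeR and 0.04 with library totals, and Izumo1 to -0.13 and Pick1 to -0.16 with Sertoli scaling. With 1 library left out, values ranged from -0.47 to 0.35 for Dcst1, from -0.46 to 0.67 for Izumo1, from -1.29 to 0.06 for Izumo4, from -0.09 to 0.27 for Pick1 and from -0.44 to 0.16 for Spaca1. Genes read in both controls numbered 23 at 3 reads, 19 at 30 reads, and 22 and 21 in control 1 and control 2 alone. Depth limits the genes with few reads: Izumo1 had 14 to 31 per library, and Dcst1 and Dcst2 had 9 to 18.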

Other observations

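Some further genes of late sperm formation, named after their values were seen, had reads in control 2 and almost none elsewhere. Actl7a, of the acrosomal cytoskeleton, and Spata46 each had 10 reads in control 2, 1 in knockout 3 and 0 in the other libraries. Llcfc1, a sperm-egg fusion factor gene, had 7 reads in control 2 and 0 elsewhere, as did Prm3, while Smcp, of the mitochondrial sheath of the tail, had 4 and 0. Over the 51 measured pathway genes, 6 had no read in control 1 and at least 2 in control 2, and 0 the reverse. Over the 15 measured spermatid markers the numbers were 4 and 1, and over all genes 1662 and 1394. Other listed genes, also named after their values were seen, did not show this pattern. Fam209 had 0 and 9 reads in the controls and 8 and 7 in the knockouts, and Tssk3 had 4 and 9 against 12 and 14.

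Gapdhs, the sperm glycolytic enzyme gene, had 42 and 31 reads in the controls and 42 and 42 in the knockouts. Its 95% interval for the log2 fold change was -0.50 to 1.02. Lypd4, a further sperm-egg interaction gene, went from 808 and 1532 normalised read counts in the controls to 207 and 191 in the knockouts, a log2 fold change of -2.48 (limma Benjamini-Hochberg adjusted p = 0.000606). Both genes were named after their values were seen.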
